A study of Rattus norvegicus with 4 samples.

Results

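The nuclear genes of the respiratory chain were examined in nuclei of the rat nucleus accumbens, a forebrain region that takes part in reward. They were taken by name, as every listed feature whose symbol starts with Nduf, Uqcr, Sdh, Cox4, Cox5, Cox6, Cox7, Cox8 or Atp5, which gave 98 of 30560 features and 91 distinct symbols. Adult Sprague-Dawley rats aged 90 to 120 days were injected intraperitoneally with cocaine at 20 mg per kg or with saline once daily for 7 days, and tissue was collected 1 h after the last injection. Each of the 4 libraries, 1 per treatment and sex, holds nuclei of 4 pooled rats, 16 rats in all, from a 2 mm punch, so that each treatment has 1 female and 1 male pool and no animal can be told apart within a pool. All rats were without any stated genetic change, and cocaine was given by the experimenter, not self-administered.

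The respiratory chain moves electrons from NADH (complex I) and succinate (complex II) through complex III to oxygen at complex IV, and ATP synthase uses the resulting proton gradient to make ATP. Most subunits are encoded in the nucleus, while a smaller set is encoded in mitochondrial DNA. Neurons depend on this pathway to restore ion gradients, and astrocytes are known for a high rate of glycolysis beside it. Nuclear RNA reports transcripts still in or at the nucleus, not the protein or its activity.

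The 98 members were grouped by the start of their symbol, copy-like features included. This put 41 in complex I, 4 in complex II, 8 in complex III, 17 in complex IV and 17 in ATP synthase. Another 7 and 4 were assembly factors of complexes I and II. Ndufa4 and Ndufa4l2 were thus counted with complex I by name only, and the place of each product in a complex was not checked. They held 393744 UMIs (unique molecular identifiers, each counting 1 captured RNA molecule), or 0.296% of all UMIs in the 24843 nuclei kept. Complex I took 41.6% of member UMIs and ATP synthase 20.4%. The members with the most UMIs were Uqcrc2 with 18815 and Uqcrh with 11164 in complex III, Ndufs4 with 15076 and Ndufc1 with 12333 in complex I, Atp5pb with 10170 and Atp5f1b with 8833 in ATP synthase, Sdhb with 8695 and Sdha with 6574 in complex II, and Cox4i1 with 7769 and Cox6c with 7462 in complex IV. Cox8c and Cox6c-ps1 had 0 UMIs, and 9 members had 1 to 10. A pair of features carried each of 7 symbols, and the 12 features that look like copies held 2.07% of member UMIs, so values of those symbols are uncertain.

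Libraries held 31484217 to 40737786 UMIs. Nuclei were assigned to classes by marker UMIs, 19448 of 24843 in all, and 10 to 18 barcodes were shared by any pair of libraries. Median UMIs per nucleus differed between libraries within a class, in D1-MSN-like nuclei from 10132 (female saline) to 6658 (male cocaine). D1-MSN-like nuclei are those of medium spiny neurons (MSN, the main neurons of this region) with markers of the Drd1 dopamine receptor type, and D2-MSN-like nuclei those with markers of the Drd2 type.

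Promoters of 79 of the 91 symbols were matched in RefSeq (GRCr8, 250 bases before to 50 after the start), and both strands were searched for 5 short motifs. The motif of nuclear respiratory factor 1 (GCGC, any base, then TGCGC), a regulator of nuclear genes for mitochondria, was present in 20.3% of member promoters and 4.71% of all 27457 promoters. CCGGAAG, a motif of ETS family factors, was present in 29.1% against 9.22%, and AAGATGGCG, a motif of YY1, in 12.7% against 1.93%. The Sp1 motif GGGCGG (45.6% against 34.9%) and the TATA box TATAAA (8.86% against 14.3%) were counted the same way, and none of the 5 motifs contains another. Other spellings of these motifs had been counted before these were kept. The promoters below belong to members that differed between classes, 1 higher and 1 lower with the first motif, 1 with the ETS motif and 1 with the YY1 motif, and capitals mark the match, which in Ndufb4 and Ndufa5 reads as the motif on the opposite strand.
Ndufb4, chr11:76568928-76569227, plus strand: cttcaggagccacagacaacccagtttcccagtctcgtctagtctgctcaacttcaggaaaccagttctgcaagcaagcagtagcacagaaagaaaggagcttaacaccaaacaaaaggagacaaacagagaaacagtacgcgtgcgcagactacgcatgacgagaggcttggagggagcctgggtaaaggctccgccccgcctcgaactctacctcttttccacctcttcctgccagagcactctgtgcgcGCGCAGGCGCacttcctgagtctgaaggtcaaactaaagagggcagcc
Ndufa5, chr4:53971186-53971485, minus strand: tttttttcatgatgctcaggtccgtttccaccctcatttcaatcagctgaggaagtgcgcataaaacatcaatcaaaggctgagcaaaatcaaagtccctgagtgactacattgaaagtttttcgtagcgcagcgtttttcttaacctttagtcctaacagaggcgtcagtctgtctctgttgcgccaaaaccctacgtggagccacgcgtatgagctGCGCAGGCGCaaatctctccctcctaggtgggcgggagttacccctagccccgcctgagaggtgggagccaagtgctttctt
Sdhb, chr5:158547684-158547983, plus strand: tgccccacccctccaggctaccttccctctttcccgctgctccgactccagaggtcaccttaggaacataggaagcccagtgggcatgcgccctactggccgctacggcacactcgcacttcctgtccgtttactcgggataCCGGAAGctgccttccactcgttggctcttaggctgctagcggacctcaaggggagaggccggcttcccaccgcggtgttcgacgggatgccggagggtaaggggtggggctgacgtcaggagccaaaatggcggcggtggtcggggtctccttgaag
Ndufa9, chr4:161374121-161374420, minus strand: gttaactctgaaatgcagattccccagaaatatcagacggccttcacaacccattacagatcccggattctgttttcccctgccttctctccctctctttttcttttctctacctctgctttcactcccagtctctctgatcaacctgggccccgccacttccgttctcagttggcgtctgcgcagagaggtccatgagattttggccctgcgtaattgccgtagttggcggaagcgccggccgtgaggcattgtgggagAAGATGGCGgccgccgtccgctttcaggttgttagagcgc
A match is a description of the letters, and the same motif stood in Ndufb4, which was higher in astrocyte-like nuclei than in D1-MSN-like nuclei, and in Ndufa5, which was lower in oligodendrocyte-like nuclei.

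The summed level of the members differed between cell classes. It is given as CPM, the UMIs of the members scaled to the UMIs of the class in that library. It was highest, among classes with at least 20 nuclei in each library, in Pvalb/Pthlh interneuron-like nuclei (fast-spiking interneurons are known for a high energy demand), at 3928, 4222, 4555 and 4872 CPM. Here and below, 4 values in a row stand for the female saline, female cocaine, male saline and male cocaine library, in that order. Astrocyte-like nuclei followed with 3588, 3842, 3539 and 3804, and D1-MSN-like nuclei had 2566, 2729, 2864 and 3072. In each library the Pvalb/Pthlh and astrocyte-like values lay above the D1-MSN-like value, by 0.64 ± 0.03 and 0.40 ± 0.11 on the log2 scale (SD, n = 4). Depth differed too, with median UMIs per nucleus of 2597 to 3464 in astrocyte-like and 6658 to 10132 in D1-MSN-like nuclei. Among nuclei with 4000 to 8000 UMIs, astrocyte-like values were 3329, 3434, 2977 and 3240. D1-MSN-like values in that range were 2860, 3053, 3132 and 3353, so the order was reversed in the male libraries. The part of depth in the class differences was not tested. D2-MSN-like nuclei could not be told from D1-MSN-like nuclei, with a log2 ratio of 0.00068 ± 0.02 (SD, n = 4). Cholinergic interneuron-like nuclei had 3325 ± 238 CPM (at least 8 nuclei per library), Sst interneuron-like 3240 ± 285, microglia-like 2953 ± 228, oligodendrocyte-like 2728 ± 213, eccentric MSN-like 2688 ± 127 and oligodendrocyte precursor-like 2530 ± 199 (SD, n = 4), and neighbours in this order overlapped. Vascular-like nuclei had 4349 ± 870 (SD, n = 4), from 6 to 28 nuclei per library, and glutamatergic neuron-like nuclei 2673 ± 503 (SD, n = 4), from at least 9. Counted per nucleus the order was another: 38.6 ± 7.83 member UMIs in cholinergic, 33.8 ± 5.02 in glutamatergic, 27.6 ± 4.83 in Pvalb/Pthlh, 23.4 ± 2.47 in D1-MSN-like, 11.9 ± 1.25 in astrocyte-like and 5.22 ± 0.22 in oligodendrocyte-like nuclei (SD, n = 4).

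**Figure D1:**
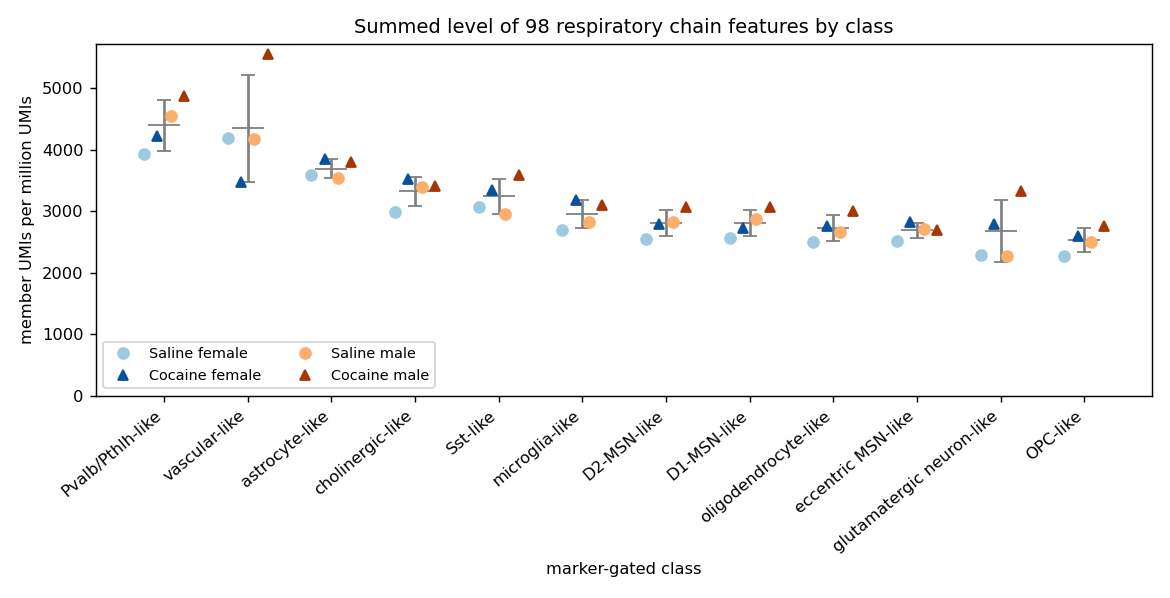
Summed member CPM (vertical axis, linear from 0) in each marker-gated class (horizontal axis), with 1 point per library, and the mean and SD of the 4 libraries in grey. The 4 Pvalb/Pthlh points lie between 3928 and 4872, above the 4 D1-MSN-like points between 2566 and 3072.

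Each class was compared with D1-MSN-like nuclei gene by gene with edgeR's quasi-likelihood test (TMM scaling, library as a block, Benjamini-Hochberg adjustment over all genes at 0.05), in which 79 members passed the filter on low counts. Classes differ widely in their RNA, so the scaling between them is a choice: TMM set values lower than plain UMI totals by 0.46 on the log2 scale in microglia-like, 0.34 in Sst, 0.25 in astrocyte-like, 0.17 in oligodendrocyte precursor-like and 0.10 in oligodendrocyte-like nuclei relative to D1-MSN-like nuclei. Members named below as higher or lower passed in the same direction on both scalings unless stated.

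Complex II (succinate dehydrogenase) had, of the 5 complexes and their assembly factors, the highest share relative to D1-MSN-like nuclei in astrocyte-like, microglia-like and oligodendrocyte-like nuclei. It also ranked first in oligodendrocyte precursor-like (log2 ratio 0.24) and in the few vascular-like nuclei (1.02). The same held in Pvalb/Pthlh interneuron-like nuclei, at 0.78 beside 0.77 for complex IV, so the rank was not particular to glia. In astrocyte-like nuclei 28 of 79 members were higher and 16 lower, against 34.9% and 36.3% of all genes, and without TMM scaling 42 were higher and 6 lower, against 44.4% and 27.8%. All 4 complex II subunits rose there on both scalings. Sdhc, a membrane anchor subunit, stood at 85.5, 97.4, 76.7 and 88.5 CPM in astrocyte-like nuclei and at 41.0, 35.6, 39.0 and 37.1 in D1-MSN-like nuclei. The ranges did not overlap, and the log2 difference was 0.94 ± 0.10 (SE, edgeR adjusted p = 7.13e-11), or 1.19 without TMM scaling. Sdha, the flavoprotein that oxidises succinate, was higher by 0.82 ± 0.08 (SE), Sdhb, the iron-sulphur subunit, by 0.65 ± 0.09 (SE) and Sdhd, the other anchor, by 0.58 ± 0.14 (SE).

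In the other glia not all complex II subunits passed, and in oligodendrocyte precursor-like nuclei 0 of 4 did, or 1 without TMM scaling. In microglia-like nuclei Sdhb stood at 155, 159, 182 and 201 CPM against 58.6, 58.6, 51.5 and 64.0 in D1-MSN-like nuclei, higher by 1.10 ± 0.13 (SE, edgeR adjusted p = 4.45e-10), while Sdha, Sdhc and Sdhd differed by 0.01, -0.11 and 0.06 and did not pass. Without TMM scaling Sdha also passed there, at 0.46. In oligodendrocyte-like nuclei Sdhd was higher by 1.25 ± 0.11 (SE, edgeR adjusted p = 1.02e-13), Sdha by 0.59 and Sdhb by 0.23, and Sdhc differed by -0.05 and did not pass. Whether the subunits differ from each other was not tested.

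**Figure D2:**
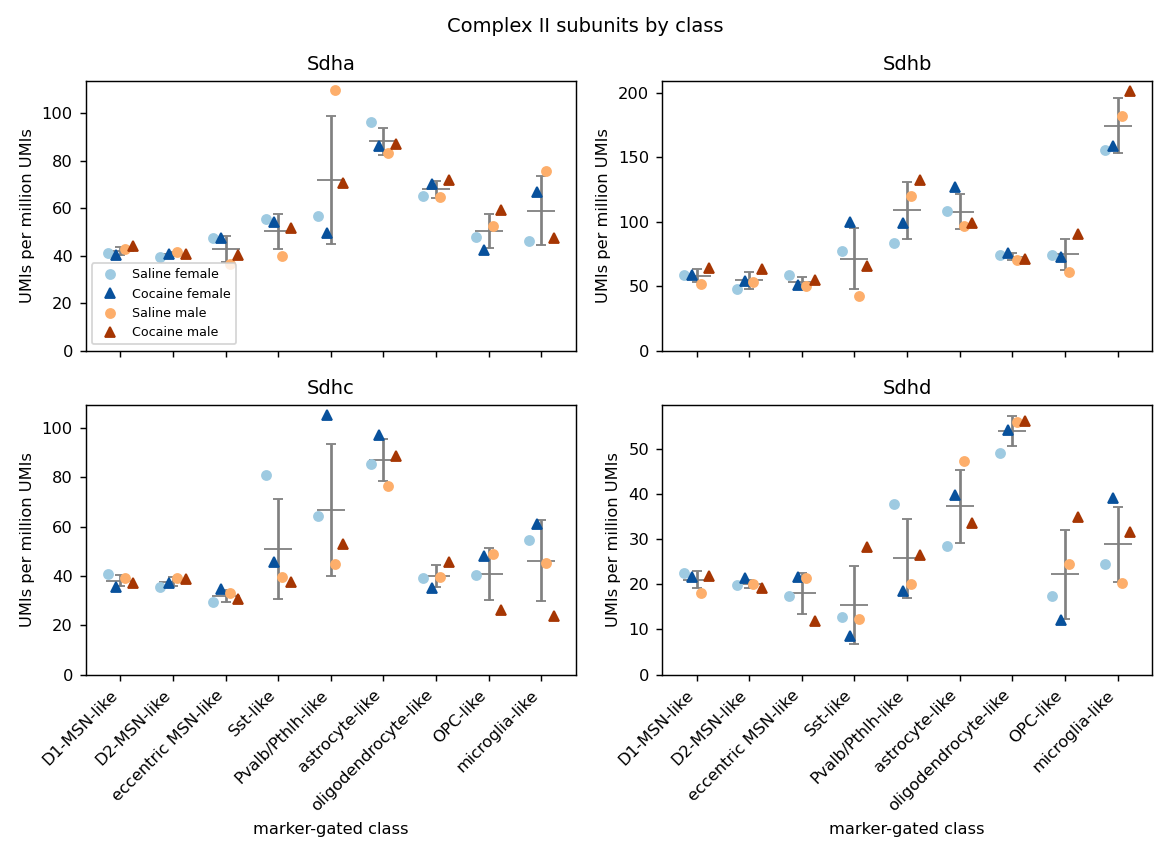
CPM (vertical axes, linear from 0) of the 4 complex II subunits by class (horizontal axes), 1 point per library, with mean and SD in grey. Sdhb is highest in microglia-like nuclei, at 155 to 201, and Sdhd in oligodendrocyte-like nuclei, at 49.0 to 56.2.

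Among complex I members, 12 of 34 tested rose and 5 fell in astrocyte-like nuclei, where 34.9% and 36.3% of all genes did, so the share of complex I members that rose was near that of all genes. Without TMM scaling 20 rose and 1 fell (44.4% and 27.8% of all genes). Ndufb4, an accessory subunit, stood at 42.4, 41.7, 47.2 and 42.6 CPM there and at 18.9, 15.1, 17.6 and 17.0 in D1-MSN-like nuclei, higher by 1.10 ± 0.12 (SE, edgeR adjusted p = 1.19e-10). The core subunits Ndufs1 and Ndufv2 were higher by 0.60 and 0.64 in the same comparison. Ndufa5, another accessory subunit, went the other way in oligodendrocyte-like nuclei, at 20.8, 26.5, 19.4 and 23.4 against 51.7, 62.1, 62.8 and 66.4, a log2 difference of -1.51 ± 0.10 (SE, edgeR adjusted p = 2.54e-18). It was also lower in oligodendrocyte precursor-like (-1.29) and microglia-like nuclei (-1.51). Ndufa9, an accessory subunit, differed in microglia-like nuclei by -1.95 ± 0.28 (SE, edgeR adjusted p = 5.12e-08), at 27.2, 19.5, 15.1 and 0 against 53.2, 45.3, 48.1 and 44.4, with 0 UMIs seen in the male cocaine library. Of the 2 members of complex I with the most UMIs, Ndufs4 differed by -0.04 and Ndufc1 by -0.94 in oligodendrocyte-like nuclei, and only Ndufc1 passed.

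Members of complexes III and IV differed in both directions. Uqcrc2, a core subunit of complex III, was higher in astrocyte-like nuclei by 0.36 ± 0.07 (SE) and lower in oligodendrocyte-like nuclei by -0.26 ± 0.06 (SE). Uqcr10, a small subunit of the same complex, stood at 32.7, 66.9, 40.3 and 59.1 CPM in microglia-like nuclei against 15.0, 19.7, 20.6 and 21.6, and was higher by 0.95 ± 0.21 (SE, edgeR adjusted p = 9.14e-05). Cox7a2l2, whose symbol marks it as a copy-like feature and whose value is therefore uncertain, was higher by 0.89 in astrocyte-like, 0.95 in oligodendrocyte-like and 0.54 in oligodendrocyte precursor-like nuclei. The last of these did not pass without the female saline or without the male cocaine library.

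The assembly factors of complex I, which help build the complex and are not part of it, had these calls among 6 tested. In astrocyte-like nuclei 4 fell and 0 rose, where 36.3% of all genes were called lower, and in oligodendrocyte-like nuclei 5 fell and 1 rose (39.2%). In microglia-like nuclei 5 fell and 0 rose (36.0%), and in oligodendrocyte precursor-like nuclei 3 fell and 0 rose (30.5%). Without TMM scaling 3, 4, 4 and 2 fell and 0, 1, 0 and 1 rose in these classes, in the same order. Of all genes, 27.8%, 36.1%, 26.3% and 24.9% were then called lower. Ndufaf4 stood at 7.23, 8.20, 7.13 and 6.06 CPM in oligodendrocyte-like nuclei against 18.3, 20.4, 18.4 and 24.2 in D1-MSN-like nuclei, a log2 difference of -1.57 ± 0.14 (SE, edgeR adjusted p = 3.35e-13). Ndufaf3 differed by -0.98 in astrocyte-like and -1.44 in oligodendrocyte precursor-like nuclei, and both stayed past the threshold without TMM scaling.

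Among ATP synthase members, Atp5if1, which encodes an inhibitor of the enzyme's reverse reaction, stood at 15.2, 10.6, 16.2 and 8.20 CPM in astrocyte-like nuclei against 22.9, 29.4, 29.4 and 32.1 in D1-MSN-like nuclei. It differed by -1.40 ± 0.19 (SE, edgeR adjusted p = 9.14e-09), and by -1.15 in oligodendrocyte-like and -1.01 in oligodendrocyte precursor-like nuclei. In microglia-like nuclei it was higher, by 0.56 ± 0.22 (SE). The catalytic subunits Atp5f1a and Atp5f1b were higher in astrocyte-like nuclei by 0.72 and 0.41.

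**Figure D3:**
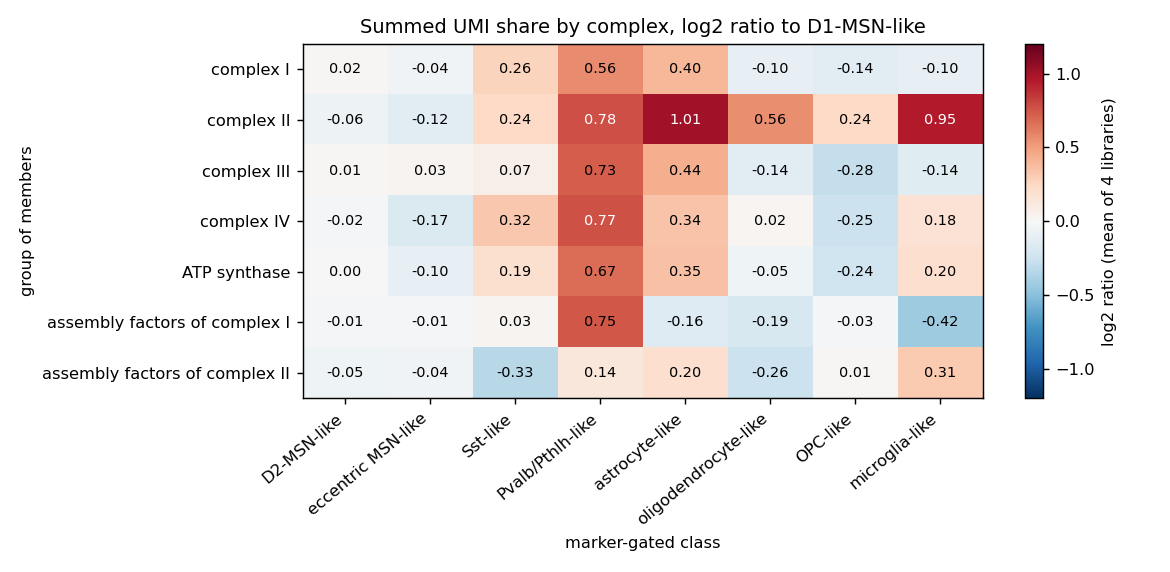
Log2 ratio of the summed UMI share of each group of members (rows) in each class (columns) to that in D1-MSN-like nuclei, from plain UMI totals, mean of 4 libraries, with the value in each cell. Complex II stands at 1.01 in astrocyte-like and 0.95 in microglia-like nuclei.

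In oligodendrocyte-like nuclei 14 of 79 members rose and 37 fell, where 38.8% and 39.2% of all genes did. Without TMM scaling 16 rose and 26 fell (42.4% and 36.1% of all genes). In microglia-like nuclei 6 rose and 31 fell (28.4% and 36.0% of all genes, 64.4% in all), and without TMM scaling 13 rose and 13 fell (38.8% and 26.3%). In oligodendrocyte precursor-like nuclei 1 rose and 35 fell (27.6% and 30.5% of all genes, 58.1% in all), and without TMM scaling 7 rose and 20 fell (33.45% and 24.91%). Of 12 mitochondrially encoded genes tested, 12 rose in oligodendrocyte-like, 12 in microglia-like, 11 in oligodendrocyte precursor-like, 8 in Sst interneuron-like and 2 in astrocyte-like nuclei. Of all genes, 38.8%, 28.4%, 27.6%, 13.9% and 34.9% were called higher in these classes, in the same order. In Pvalb/Pthlh interneuron-like nuclei 4 of 13 rose (11.4% of all genes). Depth per nucleus was not matched between classes.

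Among neurons, 0 of 79 members differed between D2-MSN-like and D1-MSN-like nuclei, where 7.82% of all genes did (3.5% higher, 4.32% lower). An unadjusted p under 0.05 (edgeR) was found for 1 member and for 2087 of all 13069 genes. Pvalb/Pthlh interneuron-like nuclei had 18 members higher and 0 lower, against 11.4% and 19.1% of all genes, in a fit that admitted classes with at least 20 nuclei in each library and was added after the data were seen. Without TMM scaling 30 rose and 0 fell (17.9% and 11.3% of all genes). Cox4i1, a regulatory subunit of complex IV, was higher there by 0.76 ± 0.19 (SE, edgeR adjusted p = 0.00168), and Ndufaf2, an assembly factor, by 1.11 ± 0.18 (SE). Ppargc1a, a coactivator of mitochondrial genes that is not a member, differed by 0.83 ± 0.17 (SE) in the same class. It was lower in D2-MSN-like (-0.39), eccentric MSN-like (-0.51) and Sst interneuron-like nuclei (-1.72). In glia it differed by -2.69 ± 0.13 (SE) in astrocyte-like, -0.72 in oligodendrocyte precursor-like, -5.19 in oligodendrocyte-like and -5.03 in microglia-like nuclei. Its relation to the members was not tested. For Sst interneuron-like nuclei the direction depended on the scaling: 0 members rose and 12 fell (13.9% and 20.2% of all genes). Without TMM scaling 12 rose and 0 fell (24.4% and 12.0% of all genes). On each scaling, the share of members called was below that of all genes. The 3 lowest by TMM, Sdhaf3 (-1.15), Ndufaf4 (-1.14) and Ndufa11 (-1.12), did not pass without it. For eccentric MSN-like nuclei, an MSN type marked by Casz1 and Otof, 0 rose and 13 fell (10.2% and 13.8% of all genes, 23.9% in all). Without TMM scaling 1 rose and 3 fell (13.7% and 9.56% of all genes).

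Where both forms were listed, subunit isoforms were mostly the ubiquitous ones. Cox6b2, Cox7a2, Cox8a and Cox8b were not listed by symbol, so isoforms of the Cox6b, Cox7a and Cox8 families could not be compared. Cox4i1 had 7769 UMIs and Cox4i2, an isoform known from lung and vessels, had 23. Ndufa4 had 4910 and Ndufa4l2 had 200, and the muscle isoforms Cox6a2 and Cox7a1 had 9 and 167. In the 71 vascular-like nuclei Ndufa4l2 had 1, 4, 7 and 11 UMIs per library, or 275 CPM over all 4 libraries, against 1.6 CPM in D1-MSN-like nuclei. Cox4i2 had 5 UMIs in the vascular-like nuclei. These counts are small, and no test was made.

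With cocaine, the summed member share was higher in the female pools in 8 of 8 tested classes and in the male pools in 7 of 8. All classes were cut from the same 4 libraries and share animals, handling and free RNA. Counts of classes here and below are therefore not counts of independent observations. Over all nuclei the log2 change of the share was 0.09 in each sex, and per nucleus it was -0.08 in females and -0.04 in males. By class, member UMIs per nucleus were lower with cocaine in females in 6 of 8 classes and higher in males in 8 of 8. In D1-MSN-like nuclei the log2 change per nucleus was -0.26 in females and 0.02 in males, and in astrocyte-like nuclei it was 0.01 in each. The share in astrocyte-like nuclei went from 3588 to 3842 CPM in females and from 3539 to 3804 in males, a log2 change of 0.10 in each. In D1-MSN-like nuclei it went from 2566 to 2729 and from 2864 to 3072, by 0.09 and 0.10, and in D2-MSN-like nuclei from 2546 to 2794 and from 2830 to 3068, by 0.13 and 0.12. In both MSN classes the saline male value lay above the cocaine female value, so the groups overlapped. The groups did not overlap in 5 of 8 classes, among them astrocyte-like, oligodendrocyte-like and microglia-like nuclei. With 2 libraries against 2, an exact permutation test cannot go below p = 0.333, and none was made.

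**Figure D4:**
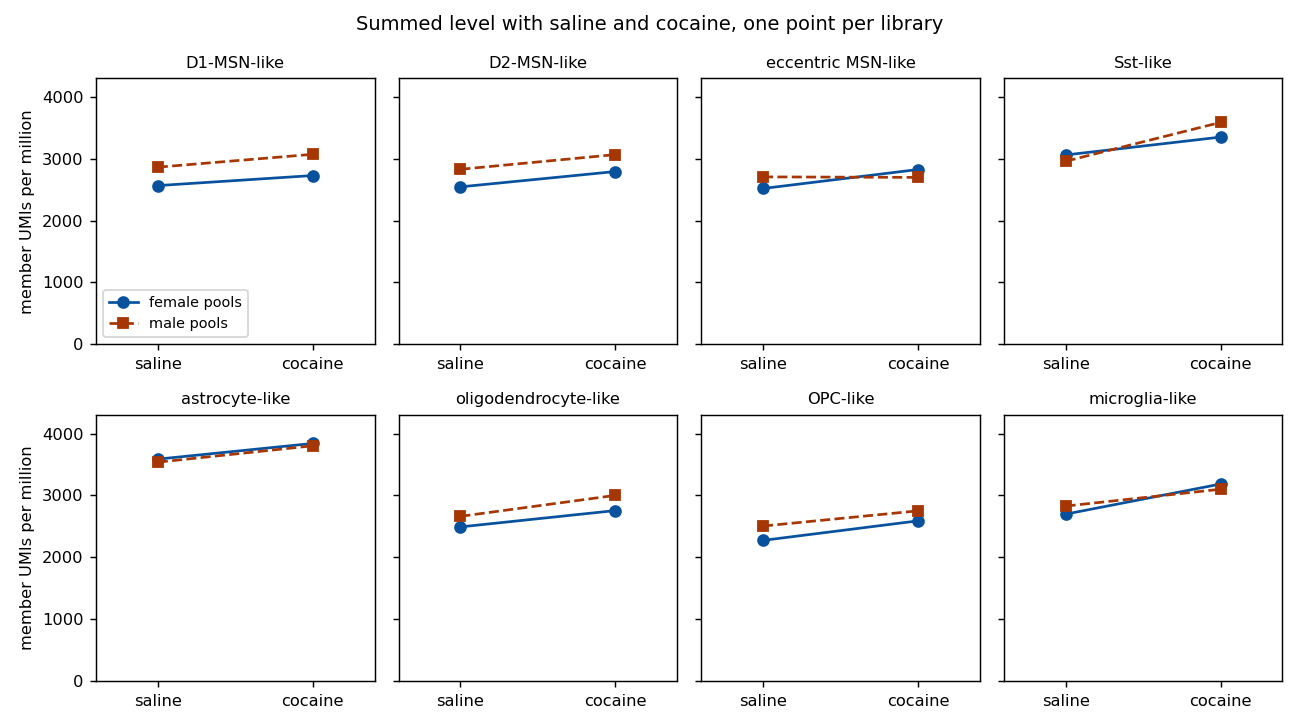
Summed member CPM (vertical axes, linear from 0) with saline and cocaine in the 8 tested classes, 1 point per library, with a line joining the pools of 1 sex. The lines slope upward except for the male pools in eccentric MSN-like nuclei, at 2707 and 2699.

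Depth per nucleus moved with treatment. Median UMIs per nucleus were lower with cocaine in both sexes in 8 of 8 classes, in D1-MSN-like nuclei by -0.37 in females and -0.10 in males on the log2 scale. The share of ribosomal protein genes was higher with cocaine in both sexes in 8 of 8 classes too, in D1-MSN-like nuclei by 0.07 and 0.05. Within a library, nuclei with more UMIs had a smaller member share: the highest quartile of UMIs per nucleus lay below the lowest in 31 of 32 pairs of class and library, by -0.42 in D1-MSN-like and -0.37 in astrocyte-like nuclei on average. In D1-MSN-like nuclei with 8000 to 16000 UMIs the member share was 2555 with saline and 2542 with cocaine in females, and 2620 and 2741 in males. With 4000 to 8000 UMIs it was 2860 and 3053 in females and 3132 and 3353 in males. Over 11 pairs of class and UMI range the share was higher with cocaine in 10 in females and 10 in males. The part of depth in the change was not tested beyond these ranges, which were added after the data were seen.

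**Figure D5:**
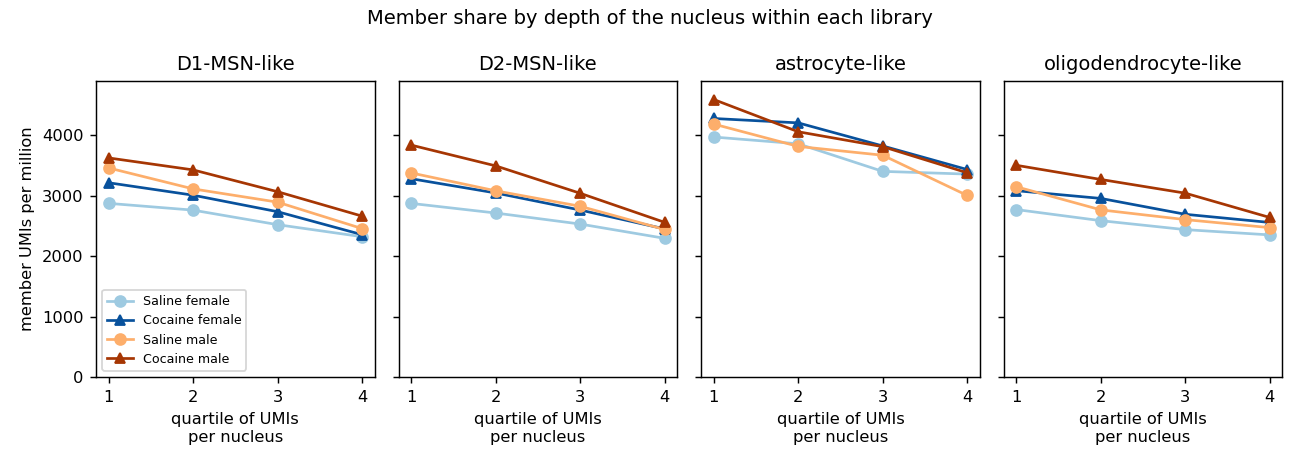
Member CPM (vertical axis, linear from 0) by quartile of total UMIs per nucleus within each library (horizontal axis) in 4 classes, 1 line per library. The share falls from the lowest to the highest quartile in each of these lines.

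No single member passed the threshold with cocaine in any class by edgeR's quasi-likelihood test with sex as a covariate, nor by DESeq2. In D1-MSN-like nuclei 0 of 83 members were called, where 1.66% of all genes were, and 7 had an unadjusted p under 0.05. In D2-MSN-like nuclei 0 of 83 were called (0.0861% of all genes), with 10 under 0.05, and in astrocyte-like nuclei 0 of 78 (1.19%), with 3. In oligodendrocyte-like nuclei 0 of 80 were called (0.831%), with 5 under 0.05, in eccentric MSN-like nuclei 0 of 79 (0.462%), with 5, and in microglia-like nuclei 0 of 42 (0.186%), with 1. In Sst interneuron-like nuclei 0 of 41 were called, with 2 under 0.05, and in oligodendrocyte precursor-like nuclei 0 of 62, with 3, and in both of these classes 0% of all genes were called. Over all neuron-like nuclei 0 of 84 were called (0.145%), with 14 under 0.05, and over all nuclei 0 of 85 (0.0484%), with 20. Many genes outside the list also had an unadjusted p under 0.05 (edgeR). Their share of all genes tested was 13.35% over all nuclei and 11.85% over all neuron-like nuclei. Among glia it was 9.36% (oligodendrocyte-like), 8.79% (astrocyte-like), 5.91% (microglia-like) and 4.87% (oligodendrocyte precursor-like). Among neurons it was 4.995% (Sst interneuron-like), 8.26% (eccentric MSN-like), 9.15% (D2-MSN-like) and 10.77% (D1-MSN-like). The median log2 change of the members was 0.08 for D1-MSN-like nuclei, 0.09 for D2-MSN-like, 0.10 in astrocyte-like and 0.14 in oligodendrocyte-like nuclei, where the median over all genes tested was 0.00079, 0.0012, 0.0033 and 0.0044. Members above 0 numbered 60 of 83, 62 of 83, 50 of 78 and 63 of 80, where 50.17%, 50.25%, 50.43% and 50.95% of all genes lay above 0.

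The member nearest the threshold was Uqcrb (ENSRNOG00000024967), a complex III subunit, in oligodendrocyte-like nuclei. It stood at 23.0, 36.6, 27.0 and 43.6 CPM. Both cocaine values lay above both saline values, and the log2 change was 0.63 ± 0.17 (SE, edgeR adjusted p = 0.0559). When clusters replaced the marker gate the adjusted p was 0.0321, and by DESeq2 it was 1. Cox5b, a complex IV subunit, also passed with clusters in Sst interneuron-like nuclei (log2 change 1.56, edgeR adjusted p = 0.0325), and did not pass with the gate, at 17.1, 59.8, 24.4 and 89.2 CPM (log2 change 1.79, edgeR adjusted p = 0.65). In D1-MSN-like nuclei the smallest adjusted p was that of Ndufa2, an accessory subunit of complex I, at 5.14, 8.00, 7.90 and 12.2 CPM, a log2 change of 0.61 ± 0.21 (SE, edgeR adjusted p = 0.175). Cox5a, a subunit of complex IV, stood at 10.7, 14.2, 15.6 and 20.1 CPM there, a log2 change of 0.37 ± 0.16 (SE) that did not pass, whereas Uqcrc2 changed by -0.0028 ± 0.08 (SE). The cocaine effect in D2-MSN-like nuclei minus that in D1-MSN-like nuclei passed for 0 of 83 members, where 0.0833% of all genes passed, and 2 had an unadjusted p under 0.05 (edgeR, smallest adjusted p = 0.617).

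Related lists gave few calls with cocaine. In D1-MSN-like nuclei 0 of 28 other assembly factors, 0 of 18 genes of the tricarboxylic acid cycle and pyruvate dehydrogenase, 0 of 14 of glycolysis, 0 of 13 mitochondrially encoded genes and 0 of 19 of the electron carriers and coenzyme Q were called, as were 0 of 11 regulators of mitochondrial gene expression. Of the cytosolic ribosomal protein genes 3 of 83 rose and 1 fell, where 1.66% of all genes were called. Their median log2 change was 0.11, against 0.08 for the members. In other classes, 1 of 16 genes of the electron carriers and coenzyme Q rose in astrocyte-like nuclei (1.19% of all genes called). In oligodendrocyte-like nuclei 1 of 82 ribosomal protein genes rose (0.831%).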

How the data were processed

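Single-nucleus RNA was counted in 4 libraries (10x Genomics 3′ chemistry, sorted nuclei). The authors deposited raw UMI counts per gene and nucleus, made with Cell Ranger 6.1.2 per the file headers, and the submitters' processing notes list the build rn7. The alignment settings themselves were not stated. Members and lists were chosen with earlier results of these data known.

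Filters asked for 200 genes or more and mitochondrial UMIs of 5% or less. The nuclei with the highest Scrublet scores (scanpy 1.11.5) were removed as doublets, 4.97% to 5.81% of each library and 1381 of 26228 in all. A nucleus joined a class when the share of that class's markers detected in it led by at least 0.1, and D1 and D2 were split at a ratio of 3 between their marker UMIs. The values of these limits followed a look at the data. Of 80 marker entries, 5 were not listed by symbol. The Leiden clusters (leidenalg 0.10.2, resolution 0.5) served as an alternative, and of the gated nuclei 94.2% of D1-MSN-like and 96.6% of D2-MSN-like lay in clusters of that name. No cluster was named eccentric MSN-like or Pvalb/Pthlh interneuron-like.

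Counts were summed per library and class, and classes with at least 25 nuclei in each library were tested with edgeR 4.0.16 (R 4.3.3; quasi-likelihood, TMM, filterByExpr), with DESeq2 1.42.0 as an alternative. Sex was a covariate, which pairs the pools of 1 sex across treatments and leaves 1 residual degree of freedom per gene. In astrocyte-like nuclei edgeR estimated infinite prior degrees of freedom. A standard error is the log2 change divided by the root of the F statistic. P-values with cocaine thus lean mainly on variability that edgeR shares across genes, and less on how a single gene varied between pools. The finite prior values ran from 5.79 (all nuclei) to 56.5 (D1-MSN-like), beside 1 residual degree. Where the prior was infinite, the gene's own variation carried no weight. Between classes, library was a block, so those p-values do not measure plain spread between pools. No p-value measures the spread between single rats. The scripts were tested on simulated data. Levels are CPM on plain totals of the class. Free RNA was not modelled, and counting intervals were not computed. Genes named were the subunit isoform families and core subunits, the 2 members with the most UMIs per complex, the 3 highest and 3 lowest per class with 1 sign in 4 libraries, and members past the threshold with cocaine. Sdhc and Sdhd beyond that rule, Ndufaf2, Uqcrb and Ndufa2 were named after their values were seen.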

Additional observations from a re-analysis of the deposited data

Results flagged for a closer look

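The mitochondrially encoded genes were outside the member list. Their summed share was higher with cocaine in females and lower in males in 8 of 8 classes. The difference between the sexes was not tested, since each sex has 1 library per treatment. Over all nuclei the log2 change was 0.27 in females and -0.59 in males. Classes of a library share animals, handling and free RNA, so the 8 classes are not separate observations. The part of free RNA and of depth in these UMIs was not tested. By class, the log2 changes of this summed share in females and males were 0.43 and -0.39 for D1-MSN-like nuclei, 0.24 and -0.48 for D2-MSN-like, 0.13 and -0.94 in eccentric MSN-like, 0.86 and -0.54 in Sst interneuron-like and 0.074 and -0.42 in astrocyte-like nuclei. They were 0.51 and -0.52 in oligodendrocyte-like, 0.53 and -0.66 in oligodendrocyte precursor-like and 0.29 and -0.50 in microglia-like nuclei. Among the nuclear-encoded members the sexes differed in sign in eccentric MSN-like nuclei, at 0.17 in females and -0.0043 in males.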

How the results depend on the processing

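The number of members called with cocaine was 0 under the alternatives run, the fit with no replicate block included, except when clusters replaced the gate, where Cox5b was called in Sst interneuron-like nuclei (1 member) and Uqcrb in oligodendrocyte-like nuclei (1 member). The change of the summed share with cocaine stayed above 0 under the alternatives run. Member UMIs per nucleus did not follow it. Their mean change over both sexes was below 0 in D1-MSN-like (-0.12), D2-MSN-like (-0.09), Sst interneuron-like (-0.06) and oligodendrocyte-like nuclei (-0.04). The same held in oligodendrocyte precursor-like (-0.02), all neuron-like (-0.09) and all nuclei (-0.06). It was above 0 in eccentric MSN-like (0.02), astrocyte-like (0.01) and microglia-like nuclei (0.05). With TMM-scaled CPM the change of the summed share was 0.077 for D1-MSN-like nuclei, 0.089 for D2-MSN-like and 0.069 in astrocyte-like nuclei. On that scaling it was 0.11 in oligodendrocyte-like, 0.084 in all neuron-like and 0.078 in all nuclei. With clusters it was 0.11 in D1-MSN-like and 0.093 in astrocyte-like nuclei, without doublet removal 0.11 in astrocyte-like and 0.093 in all nuclei, and without copy-like symbols 0.090 in all nuclei. Leaving out 1 library at a time it ranged from 0.0094 to 0.18 for D1-MSN-like nuclei, 0.049 to 0.20 for D2-MSN-like, 0.091 to 0.11 in astrocyte-like, 0.098 to 0.22 in oligodendrocyte-like, 0.091 to 0.23 in oligodendrocyte precursor-like, 0.034 to 0.18 in all neuron-like and 0.042 to 0.14 in all nuclei. In D1-MSN-like nuclei the low values came without the female saline library (0.016) or the male cocaine library (0.0094).

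Between classes, the counts moved with the scaling and with single libraries. Without TMM scaling, added after the data were seen, 1 member was higher and 3 lower in eccentric MSN-like, 12 higher and 0 lower in Sst interneuron-like, 42 higher and 6 lower in astrocyte-like, 7 higher and 20 lower in oligodendrocyte precursor-like and 13 higher and 13 lower in microglia-like nuclei, and 30 higher in Pvalb/Pthlh interneuron-like nuclei. The shares of all genes on this scaling are given above. With DESeq2 size factors 5 were lower in eccentric MSN-like, 4 lower in Sst, 9 lower in astrocyte-like and 3 higher in oligodendrocyte precursor-like nuclei. With clusters 1 was lower in D2-MSN-like, 1 higher in Sst and 3 higher in oligodendrocyte precursor-like nuclei. Without 1 library the lower calls ranged from 2 to 6 in eccentric MSN-like, 3 to 8 in Sst and 9 to 15 in astrocyte-like nuclei, and the higher calls from 0 to 1 in Sst, 0 to 2 in oligodendrocyte precursor-like and 3 to 6 in microglia-like nuclei. The 2 lower calls in eccentric MSN-like nuclei, of 13 with all libraries, were those without the male cocaine library. The cause was not tested.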
